A study of Mus musculus with 10 samples.

Results

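The ephrin ligands and Eph receptors of tumour lymphatic endothelial cells were measured at a single time, 12 h after inhibition of angiopoietin-2 (Ang2). The members were the rows of the gene table named Efnb1, Efnb2, Efna1, Efna5, Epha2, Epha4, Ephb1, Ephb2, Ephb3 and Ephb4. All 10 were found among 23510 genes, and all 10 passed the filter on low counts. The 10 host mice were C57BL/6N, of an age not given in the sources used here, and carried fragments of MT-ret melanoma placed on the flank. Each was injected into the peritoneum with either an antibody against Ang2 or IgG and was killed 12 h later. No genetic change of the host mice is named in the labels, and both groups carried the same tumour. Lymphatic endothelial cells (LEC) were sorted by flow cytometry, with sorting markers not given in the labels, and each mouse gave 1 RNA-seq library from 0.5 ng of RNA (n = 5 per group unless stated). The question in the series title is how these cells respond to acute loss of Ang2, a ligand of the receptor Tie2.

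Eph receptors are receptor tyrosine kinases that bind membrane-bound ephrins on a neighbouring cell. Ephrins of the A class are held by a lipid anchor and those of the B class cross the membrane, so that the receptor cell (forward signalling) and the ephrin-B cell (reverse signalling) can both respond to contact. In blood vessels ephrin-B2 is known as an arterial and EphB4 as a venous marker. In lymphatic vessels both are present, and ephrin-B2 is known for its part in collecting vessel remodelling, valve formation and uptake of VEGF receptors from the cell surface.

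Libraries held 38090933 to 83850341 gene counts. The summed CPM (counts scaled by library size and composition) of 8 lymphatic endothelial markers was 16200 to 19369 in IgG and 13366 to 18443 in anti-Ang2 libraries. Of these, 2 of 8 had a higher mean after anti-Ang2 (exact permutation adjusted p = 0.265 for the sum). They were Lyve1 (4655 and 5646 CPM) and Reln (684 and 921 CPM). The others were lower in mean, Ccl21a (883 and 379 CPM) and Pdpn (276 and 229 CPM) without overlap of the groups. Prox1, Lyve1 and Pdpn, which define the lineage, were present in every library. Melanoma markers (12 genes) summed to 269 to 1862 CPM in IgG and 1135 to 5580 CPM in anti-Ang2 libraries, and 12 of the 12 had a higher mean after anti-Ang2 (exact permutation p = 0.0476, two-sided, and 0.143 when adjusted for 9 marker lists). The sums of 15 macrophage and monocyte markers were 51.6 to 209.8 and 71.8 to 281 CPM (14 of 15 with a higher mean after anti-Ang2, exact permutation adjusted p = 0.243). Pericyte and smooth muscle markers (8 genes) summed to 60.5 to 234 and 154 to 442 CPM (4 of 8 higher, exact permutation adjusted p = 0.107). Cspg4 rose most in mean, from 53.2 to 172 CPM, and Kcnj8 (23.4 to 62.3), Abcc9 (19.3 to 38.1) and Acta2 (31.3 to 39.8) rose less. Pdgfrb (8.15 to 4.69), Rgs5 (7.83 to 3.29), Myh11 (1.02 to 0.874) and Des (1.96 to 1.26) were lower in mean after anti-Ang2. Whether this sum reflects pericyte content apart from melanoma RNA was not tested. Pan-endothelial markers (6 genes, Kdr and Tek among them) summed to 3305 to 4399 CPM in IgG and 2430 to 3098 CPM after anti-Ang2, without overlap (exact permutation p = 0.00794, adjusted p = 0.0714). That unadjusted value is the smallest that 5 against 5 libraries allow, so a single list could not pass alone when adjusted for 9 lists. The 8 blood endothelial markers, led by Plvap, summed to 3447 to 5678 and 2595 to 5322 CPM (exact permutation adjusted p = 0.161), although 6 of the 8 had a higher mean after anti-Ang2. Fibroblast markers spanned 190 to 919 and 219 to 760 CPM, T and B cell markers 5.95 to 15.5 and 3.20 to 10.4 CPM, and keratinocyte markers 1.26 to 5.07 and 1.25 to 2.69 CPM (exact permutation adjusted p = 0.984, 0.265 and 0.357). Within the fibroblast list 3 of 8 genes had a higher mean after anti-Ang2, among them Dcn (144 and 332 CPM). Others were lower in mean, such as Col1a1 (91.9 and 22.6 CPM) and Col3a1 (127 and 41.2 CPM). Anti-Ang2 4 and 5 had the lowest quality weights (0.606 and 0.417, the others 0.911 to 1.43), so results are also given without them where that changes a call.

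Compared per length of transcript (deposited FPKM, fragments scaled by transcript length and library size), 3 genes made up most of the family in IgG libraries. EphB4 receptor mRNA stood first at 231 ± 16.7 FPKM (mean ± SD), and 159 genes of the table had a higher mean. Efna1, which encodes a lipid-anchored ligand of EphA receptors, followed at 119 ± 6.35 FPKM, and Efnb2 at 67.1 ± 13.0 FPKM. Epha2, the main receptor of ephrin-A1 in endothelium, had 17.6 ± 2.04 FPKM. The ranges of these 4 genes did not overlap in IgG libraries. Ephb1 (6.46 ± 0.866), Efnb1 (6.08 ± 1.51) and Efna5 (4.33 ± 0.858 FPKM) formed a lower tier in which the ranges of neighbours overlapped. The last tier was Epha4 (0.166 ± 0.129), Ephb3 (0.156 ± 0.234) and Ephb2 (0.0537 ± 0.0649 FPKM), again with overlapping ranges. After anti-Ang2 the order of the first 7 genes was the same, but Ephb4 (137 ± 15.03 FPKM) now overlapped with Efna1 (117 ± 7.95), and Efnb2 (26.1 ± 5.39) with Epha2 (16.7 ± 2.72 FPKM).

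**Figure D1:**
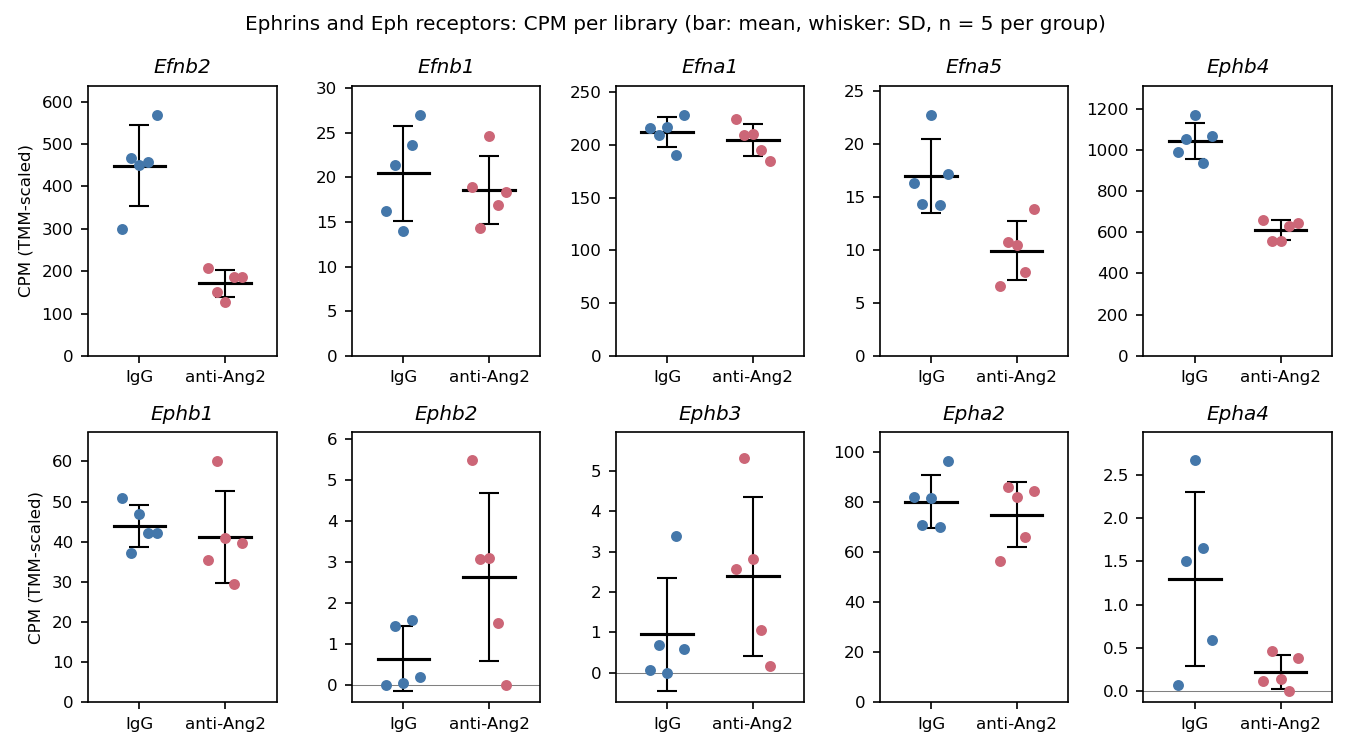
TMM-scaled CPM of each of the 10 genes in each library (points; IgG blue, anti-Ang2 red), with the mean (bar) and SD (whisker) of 5 libraries per group. Efnb2, Ephb4 and Efna5 are the genes whose groups do not overlap; the other 7 overlap.

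In the comparison of anti-Ang2 with IgG, 2 of the 10 members fell and 0 rose (edgeR quasi-likelihood test, adjusted p under 0.05 over 16240 tested genes). Over all tested genes 2.80% fell and 1.34% rose, 4.13% in all. The 2 were Efnb2 and Ephb4, a ligand and its receptor. The median log2 fold change was -0.12 over the 10 members and 0.01 over all tested genes. The groups did not overlap, with anti-Ang2 lower, in 3 of the 10 members (Efnb2, Ephb4 and Efna5), against 3.76% of tested genes, and in 0 of the 10 with anti-Ang2 higher, against 2.34% (6.10% either way). In sorted bulk RNA, fewer cells with a transcript and less transcript per cell cannot be told apart.

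Efnb2 encodes ephrin-B2, the transmembrane ligand. Its gene (ENSMUSG00000001300.16) spans positions 8617434 to 8661242 of chromosome 8 in mm10, minus strand, with introns and untranslated regions included. The 5 IgG libraries, replicates 1 to 5 in turn, held 299.9, 466, 451, 458 and 569 CPM, and the 5 anti-Ang2 libraries 207, 150.2, 127, 185 and 187 CPM. Every anti-Ang2 library lay below every IgG library, and IgG 1 was the lowest of its group. Efnb2 was 2.62-fold lower, a log2 fold change of -1.39 ± 0.17 (SE; adjusted p = 0.00142 by edgeR). Without any single library the log2 fold change ran from -1.51 to -1.29 (highest adjusted p = 0.00569 by edgeR).

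Ephb4 encodes the receptor that binds ephrin-B2 with high preference. In mm10 the gene (ENSMUSG00000029710.15) spans positions 137350109 to 137378669 of chromosome 5, plus strand. IgG replicates 1 to 5 held 990.4, 1051, 1169, 937 and 1064 CPM, and anti-Ang2 replicates 1 to 5 held 660.2, 555, 557, 632 and 644 CPM. The groups were far apart and each was tight, with coefficients of variation of 8.37% in IgG and 8.16% in anti-Ang2. Ephb4 was 1.71-fold lower, at a log2 fold change of -0.77 ± 0.08 (SE; adjusted p = 0.00100 by edgeR). The values without single libraries ran from -0.81 to -0.73 (highest adjusted p = 0.00456 by edgeR). Its exons share 33 bases with Zan on the opposite strand, which unstranded counts cannot separate, but Zan had only 47 to 149 counts in a library, against 25227 to 87047 for Ephb4.

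Mean marker sums of other cell types differed between the groups, though none passed after adjustment, and both genes were set against them. With the melanoma sum as a covariate Efnb2 was at -1.39 ± 0.24 (adjusted p = 0.0324) and Ephb4 at -0.66 ± 0.11 (adjusted p = 0.0287 by edgeR). IgG 2 and 4 and a single anti-Ang2 library, anti-Ang2 4, had nearly equal melanoma sums (1753, 1862 and 1715 CPM), and there Efnb2 was at 466, 458 and 185 CPM and Ephb4 at 1051, 937 and 632 CPM. With the macrophage sum Efnb2 was at -1.17 ± 0.19 (adjusted p = 0.0204) and Ephb4 at -0.74 ± 0.10 (adjusted p = 0.0138 by edgeR). With both sums together neither passed, Efnb2 at -1.22 ± 0.24 (adjusted p = 0.112) and Ephb4 at -0.65 ± 0.13 (adjusted p = 0.107 by edgeR), in a fit in which 3 genes of the transcriptome passed. Without anti-Ang2 1, 2 and 3, the libraries of highest melanoma sum, Efnb2 was at -1.28 (adjusted p = 0.0403) and Ephb4 at -0.72 (adjusted p = 0.0351 by edgeR). That fit left only anti-Ang2 4 and 5 in the treated group, the libraries of lowest quality weight (0.606 and 0.417). Anti-Ang2 4 was also the treated library in the comparison at nearly equal melanoma sums, so both checks are limited.

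The blood endothelial sum also fell in mean, from 4909 ± 916 to 3484 ± 1093 CPM. With that sum as a covariate, a fit chosen after the data were seen, Efnb2 was at -1.11 ± 0.21 (adjusted p = 0.0532) and no longer passed, while Ephb4 passed at -0.71 ± 0.11 (adjusted p = 0.0358 by edgeR). The sum is mostly Plvap, which averaged 4022 CPM with IgG and 2216 CPM with the antibody. Flt1 went the other way in mean (146 and 178 CPM), as did Nrp1 (52.5 and 78.7 CPM) and Aqp1 (439 and 515 CPM). So did Esm1 (74.7 and 204 CPM), Apln (70.0 and 171 CPM) and Rgcc (35.8 and 69.7 CPM), while Vwf was lower in mean (68.4 and 51.9 CPM). The part of blood endothelial RNA in the Efnb2 difference was not tested beyond this fit. Relative to the summed CPM of the pan-endothelial genes Pecam1 and Cdh5, also chosen after the data were seen, Efnb2 was lower by a log2 difference of -1.24 and Ephb4 by -0.63, with no overlap of the groups (each with a two-sided p of 0.00794 by exact permutation, or 0.0132 when adjusted over 5 measures). The denominator itself averaged 1724 ± 123 CPM with IgG and 1562 ± 125 CPM with the antibody (exact permutation p = 0.0873). These are 2 of the 6 pan-endothelial markers, and others of the list were lower in mean after anti-Ang2: Tek (503 and 202 CPM), Kdr (1350 and 777 CPM) and Erg (62.7 and 46.7 CPM). Relative to the sum of all 6, the log2 difference was -0.92 for Efnb2, without overlap (exact permutation adjusted p = 0.0132) and only -0.31 for Ephb4, with overlap (exact permutation adjusted p = 0.0198).

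**Figure D2:**
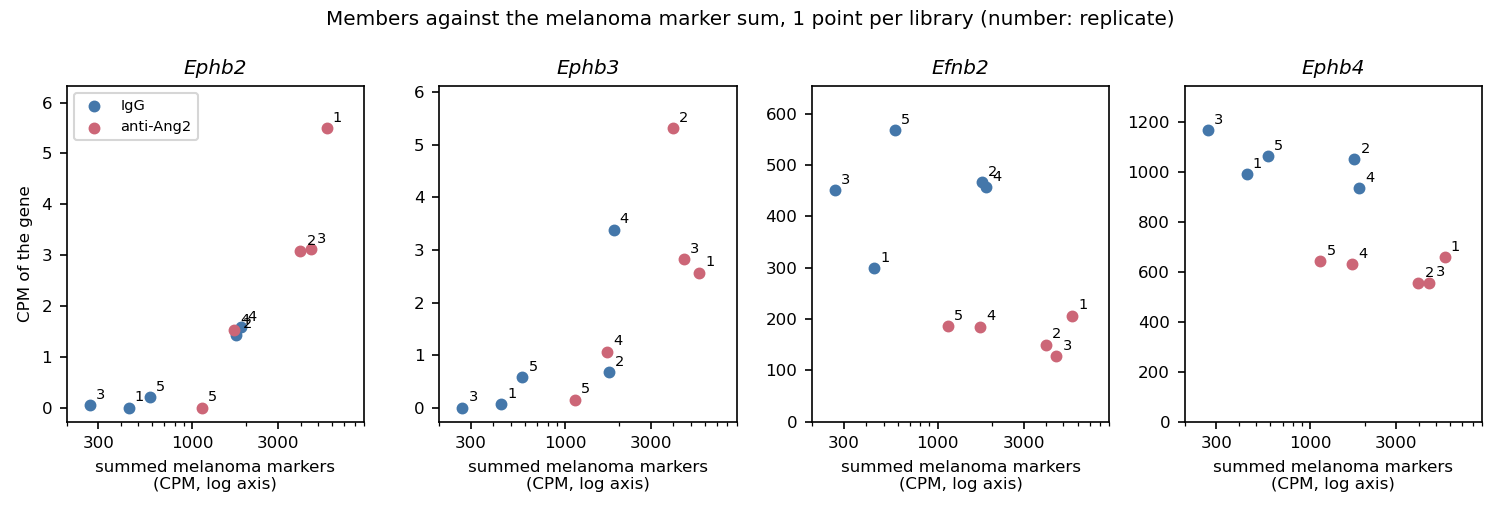
CPM of 4 genes (vertical axes) against the summed CPM of 12 melanoma markers (horizontal log axis), 1 point per library with its replicate number. Ephb2 is at 5.50 CPM in the library with the highest sum and at 0 to 0.205 CPM in the 4 with the lowest sums, and the Efnb2 and Ephb4 values of all anti-Ang2 libraries lie below those of all IgG libraries. Only anti-Ang2 4 has a sum close to those of IgG 2 and 4.

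Upstream sequences are shown for the 2 members that fell and, beside them, for Efnb1, the other ephrin-B gene, which did not pass: the 250 bases before the RefSeq transcription start (GRCm38.p6, 5′ to 3′ on the gene's strand). Capitals mark matches, on either strand, to 6 short motifs searched: GTAAACA (forkhead), TGGGAA (RBPJ, the Notch effector), GGAATG (TEAD), CCGGAA (ETS), GGGCGG (GC box) and ACAATG (SOX). The windows are chr8:8661243-8661492 (minus strand), chr5:137349859-137350108 (plus strand) and chrX:99135811-99136060 (plus strand).
Efnb2: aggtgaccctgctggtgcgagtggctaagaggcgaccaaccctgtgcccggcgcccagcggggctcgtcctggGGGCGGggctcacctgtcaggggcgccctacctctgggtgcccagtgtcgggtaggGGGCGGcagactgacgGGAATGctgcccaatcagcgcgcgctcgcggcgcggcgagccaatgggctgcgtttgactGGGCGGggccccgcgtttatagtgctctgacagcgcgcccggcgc
Ephb4: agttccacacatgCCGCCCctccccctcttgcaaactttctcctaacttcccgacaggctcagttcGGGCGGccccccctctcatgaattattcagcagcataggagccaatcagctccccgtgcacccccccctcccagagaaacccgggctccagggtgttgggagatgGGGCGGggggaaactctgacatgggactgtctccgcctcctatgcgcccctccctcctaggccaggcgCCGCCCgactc
Efnb1: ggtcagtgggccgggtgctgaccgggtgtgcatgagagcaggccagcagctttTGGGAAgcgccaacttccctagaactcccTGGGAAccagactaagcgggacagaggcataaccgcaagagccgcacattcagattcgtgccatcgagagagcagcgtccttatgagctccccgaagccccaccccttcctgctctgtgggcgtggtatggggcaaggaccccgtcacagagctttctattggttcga
The Efnb2 window held 3 GC boxes and 1 TEAD match, 105 bases before the start. That of Ephb4 held 4 GC boxes and that of Efnb1 a pair of RBPJ matches. None of these matches overlapped another, though the RBPJ and TEAD motifs can share the letters GGAA. The members had 11 such windows, as Efna1 has a second start. A GC box stood in 8 of the 11 and in 32.7% of 32851 RefSeq windows of the same length. TEAD matches stood in 2 of 11 (Efnb2 and Epha2; 12.6% of all windows) and RBPJ matches in 2 of 11 (Efnb1 and Epha4; 21.6%). ETS (Ephb2; 12.0% of all) and SOX (Ephb1; 10.7%) each had 1, and the forkhead letters were in 0 of 11 (3.17% of all). The Efnb2 window had 27 CpG dinucleotides, that of Ephb4 12 and that of Efnb1 13, against a median of 6 over all windows. A match is a run of letters and says nothing of binding.

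Efnb1, the other ephrin-B ligand, is X-linked and lies at 99136130 to 99148991 (plus strand, mm10). IgG replicates 1 to 5 held 16.2, 21.4, 13.9, 23.7 and 27.0 CPM, and anti-Ang2 replicates 1 to 5 held 18.9, 14.3, 24.6, 16.9 and 18.3 CPM. The groups overlapped, and the log2 fold change was -0.14 ± 0.20 (adjusted p = 0.801 by edgeR). The ratio of Efnb2 to Efnb1 within a library therefore separated the groups: in FPKM its geometric mean was 11.1 with IgG and 4.64 with the antibody. As log2 ratios these were 3.48 ± 0.32 and 2.21 ± 0.47 (exact permutation, two-sided, with p = 0.00794, the smallest that 5 against 5 libraries allow, and 0.0132 when adjusted over 5 ratios and shares).

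Efna1, the most abundant ephrin, hardly varied. Its IgG libraries held 217, 209, 217, 191 and 229 CPM and its anti-Ang2 libraries 225, 209, 210.4, 195 and 185 CPM, replicates 1 to 5 in each. The log2 fold change was -0.05 ± 0.08 (adjusted p = 0.797 by edgeR). Epha2, its receptor, had 82.1, 70.9, 81.5, 69.9 and 96.2 CPM in IgG and 56.5, 85.9, 82.1, 66.02 and 84.4 CPM in anti-Ang2 libraries. These groups overlapped as well (log2 fold change -0.10 ± 0.13, adjusted p = 0.787 by edgeR). Efna1 turned to 0.0045 without anti-Ang2 4 and 5, and Epha2 to 0.085 with the melanoma sum, neither with a call.

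Efna5 encodes a second lipid-anchored ligand, best known from axon guidance. Its IgG libraries held 16.3, 14.4, 22.8, 14.3 and 17.2 CPM and its anti-Ang2 libraries 6.64, 10.8, 10.49, 7.97 and 13.9 CPM. All 5 anti-Ang2 values lay below the lowest IgG value, by a narrow gap between anti-Ang2 5 (13.9) and IgG 4 (14.3 CPM). In FPKM the ranges did overlap, at 3.68 in anti-Ang2 5 and 3.64 in IgG 2. The log2 fold change was -0.77 ± 0.21, as large as that of Ephb4 with a wider SE, and it missed the threshold (adjusted p = 0.0715 by edgeR). It passed without anti-Ang2 5 (-0.92, adjusted p = 0.0293 by edgeR), in DESeq2 (adjusted p = 0.00886) and in limma-voom with quality weights (adjusted p = 0.0249), tools that called 11.4% and 8.93% of all tested genes. DESeq2 made many false calls on simulated counts. Those counts were drawn with the gene variability estimated by edgeR, so they cannot settle what weight the DESeq2 call carries. In the authors' deposited table its adjusted p-value was 0.0106 with a log2 fold change of -0.63. With the melanoma sum as a covariate the value was -0.36 ± 0.24 (adjusted p = 0.579 by edgeR).

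Ephb1, an EphB receptor of B-class ephrins, had 51.0, 37.3, 47.0, 42.3 and 42.3 CPM in IgG and 35.5, 60.0, 40.9, 29.6 and 39.6 CPM in anti-Ang2. Anti-Ang2 2 was the highest and anti-Ang2 4 the lowest of all 10 libraries, so the treated group spanned the control group (log2 fold change -0.10 ± 0.17, adjusted p = 0.840 by edgeR). Its sign turned to 0.0026 without anti-Ang2 4. The gene shares 152 exon bases with the non-coding Gm26846 on the opposite strand, which had 22 to 72 counts in a library.

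Ephb2 and Ephb3 encode EphB receptors that are known from epithelium and nerve, and both had few counts. Ephb2 had 0, 119, 2, 66 and 8 counts in IgG replicates 1 to 5 and 285, 148, 162, 80 and 0 counts in anti-Ang2 replicates 1 to 5. A count of 0 allows up to 3 counts, or 0.0729 CPM for IgG 1 and 0.0765 CPM for anti-Ang2 5, for counting error only. The difference did not pass (log2 fold change 1.995 ± 1.27, adjusted p = 0.464 by edgeR), and the groups overlapped. Ephb2 was highest in the 3 libraries with the highest melanoma sums: anti-Ang2 1 (5.50 CPM at a sum of 5580), anti-Ang2 3 (3.11 at 4573) and anti-Ang2 2 (3.08 at 3976 CPM). IgG 4, IgG 2 and anti-Ang2 4 came next at 1.59, 1.44 and 1.52 CPM with sums of 1862, 1753 and 1715 CPM. The other 4 libraries had lower melanoma sums, and there Ephb2 was at 0 to 0.205 CPM. In the fit that includes the melanoma sum the log2 fold change of Ephb2 was -1.005 ± 1.07 (adjusted p = 0.742 by edgeR), opposite in sign to the value without it.

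Ephb3 had 3, 56, 0, 141 and 23 counts in IgG and 133, 256, 147, 56 and 6 counts in anti-Ang2 libraries. IgG 4 reached 3.39 CPM, above 4 of the 5 anti-Ang2 libraries, and only anti-Ang2 2 was higher at 5.32 CPM. The log2 fold change was 1.34 ± 1.149 (adjusted p = 0.616 by edgeR). In the fit that includes the melanoma sum it was -1.62 ± 0.99 (adjusted p = 0.528 by edgeR). By melanoma sum anti-Ang2 2 and IgG 4 ranked 3 and 4 of the 10 libraries. The part of melanoma RNA in the Ephb2 and Ephb3 counts was not tested beyond these fits.

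Epha4, which binds ephrins of both classes, was also sparse, with 3, 125, 110, 69 and 23 counts in IgG and 6, 22, 7, 0 and 15 counts in anti-Ang2 libraries. As CPM this was 1.30 ± 1.01 in IgG and 0.218 ± 0.193 in anti-Ang2. Its log2 fold change of -2.57 ± 1.01 was the largest of the family in size but did not pass (adjusted p = 0.194 by edgeR). IgG 1, at 0.0730 CPM, was below 4 of the 5 anti-Ang2 libraries, so the groups overlapped. In the authors' deposited table the log2 fold change of Epha4 was -0.09 with an adjusted p-value of 0.0714. Its unadjusted p-value (0.00752) is nearly that of DESeq2 run here (0.00753), where the log2 fold change was -2.57. The deposited fold change is thus far smaller in size at nearly the same p-value, which is not a disagreement between the tests. The same held for the sparse Ephb2 (0.041 deposited and 2.03 in DESeq2 run here) and Ephb3 (0.038 and 1.35). For Ephb4 the values were close (-0.75 and -0.76).

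**Figure D3:**
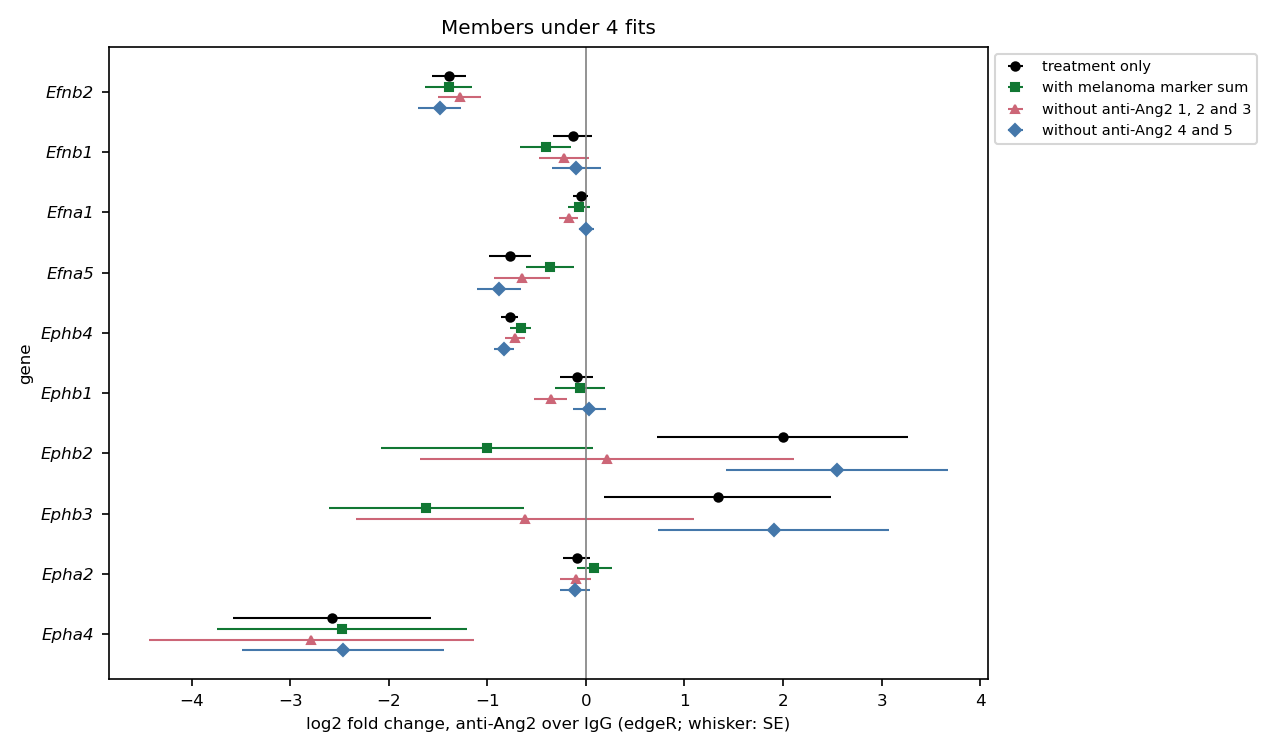
Log2 fold change, anti-Ang2 over IgG, of each gene (point) with its SE (whisker) under 4 edgeR fits. Efnb2 (-1.39) and Ephb4 (-0.77) stay apart from 0 in each, whereas Ephb2 and Ephb3 change sign with the melanoma sum and have the widest SE beside Epha4.

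The balance of ligands and receptors was compared in 5 ratios and shares, and each differed between the groups. Of these, 4 set Efnb2 or Ephb4 against members that did not pass and so restate the 2 calls; Efnb2 over Ephb4 compares the pair itself. Efnb2 fell more than its receptor: the level of Ephb4 exceeded that of Efnb2 3.49-fold in IgG and 5.33-fold in anti-Ang2 libraries (geometric means of FPKM ratios). The log2 of Efnb2 over Ephb4 was -1.80 ± 0.32 and -2.41 ± 0.17 (exact permutation p = 0.0159, two-sided, and 0.0198 when adjusted). The groups overlapped because IgG 1, at -2.29, lay below anti-Ang2 1 at -2.24. Of the summed FPKM of the 6 Eph receptors, Ephb4 made up 89.5% to 91.5% in IgG and 81.0% to 88.8% in anti-Ang2 libraries (exact permutation adjusted p = 0.0132). Of the summed FPKM of the 4 ephrins, Efnb2 made up 25.6% to 37.7% in IgG and 13.0% to 19.9% in anti-Ang2 libraries (exact permutation adjusted p = 0.0132). The level of Ephb4 over the summed Ephb1, Ephb2 and Ephb3 went from 34.7-fold to 20.9-fold (log2 5.12 ± 0.21 and 4.39 ± 0.49, exact permutation adjusted p = 0.0238). Here too the groups overlapped, with anti-Ang2 4 at 4.916 above IgG 1 (4.872) and IgG 4 (4.913).

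Efna1 took up the share that Efnb2 lost, from 60.8 ± 5.02% to 77.3 ± 2.77% of ephrin FPKM, without a call of its own. Receptor FPKM summed to 255 ± 17.2 with IgG and 161 ± 12.6 with the antibody, and ephrin FPKM to 197 ± 13.6 and 151 ± 10.3, in both cases without overlap. These sums mostly reflect Ephb4 (231 and 137 FPKM) and Efnb2 (67.1 and 26.1 FPKM) and were not tested.

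**Figure D4:**
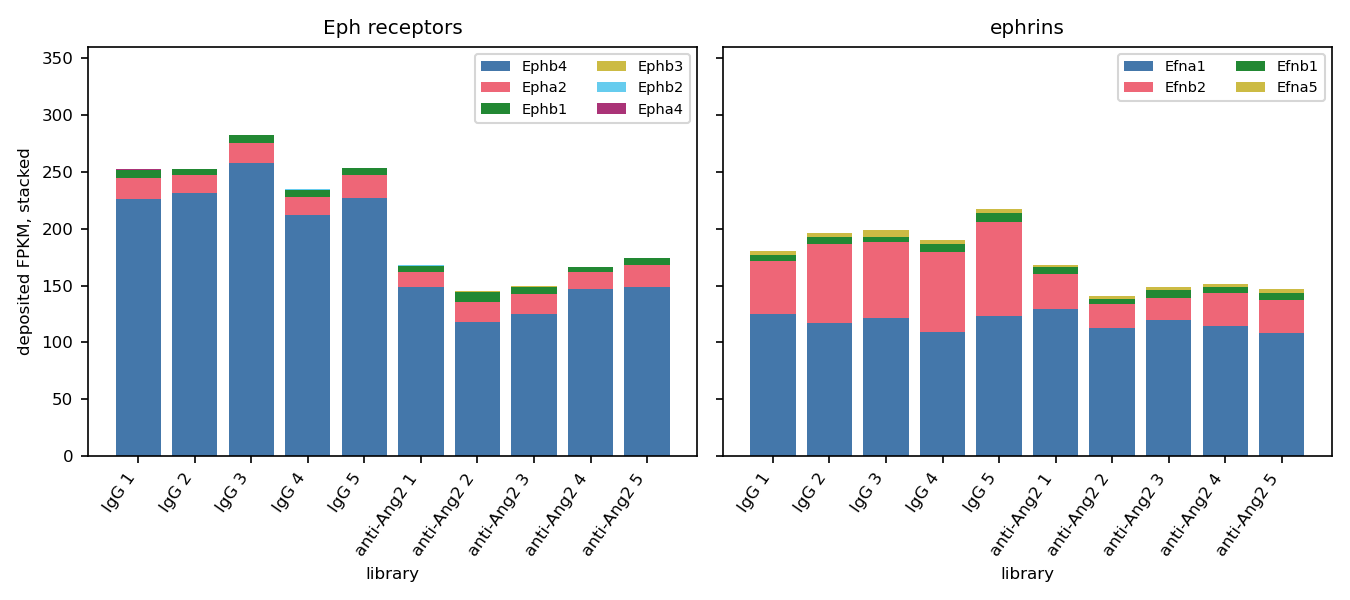
Deposited FPKM of the 6 Eph receptors (left) and the 4 ephrins (right), stacked per library. Ephb4 and Efnb2 segments shrink in the 5 anti-Ang2 libraries, while Efna1 stays at 108 to 129 FPKM.

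The rest of the family was sparse. Of 12 further ephrin and Eph genes, 11 were in the table and 9 were tested, of which 0 passed by edgeR. Over all tested genes 4.13% were called. The groups overlapped in each of these genes, while 6.10% of all tested genes had no overlap. A list of 9 is too short to read more from. The most abundant was Efna4 (5.09 ± 1.34 and 6.58 ± 0.985 CPM with IgG and with the antibody), which encodes another lipid-anchored ligand and was chosen after its values were seen. The median log2 fold change of the 9 was 0.95, against 0.01 over all tested genes. Of the 9, 8 were positive, as were 8439 of the 16240 tested genes. Most had few counts. Melanoma sums differed between the same groups (981 ± 763 and 3396 ± 1899 CPM on average), and their part in these values was not tested.

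Genes that carry Eph and ephrin signals into the cell passed about as often as all tested genes, of which 4.13% were called. In the list of Eph forward signalling, 1 of 31 tested genes fell, 0 rose and the median was -0.10 on the log2 scale. This was Vav3, a guanine nucleotide exchange factor (mean CPM 111 ± 14.5 and 85.3 ± 5.86, a log2 change of -0.38 ± 0.10 at an edgeR adjusted p of 0.0465). Its call did not hold with RLE scaling (adjusted p = 0.0533), with upper quartile scaling (0.0657) or without the filter (0.0573). Leaving out IgG 1, 2, 3 or 4, or anti-Ang2 1, 2, 3 or 4, also ended it (adjusted p from 0.0553 to 0.124 by edgeR). With the melanoma sum as a covariate Vav3 was at -0.21 ± 0.11 (adjusted p = 0.477 by edgeR) and with the macrophage sum at -0.41 ± 0.11 (0.133). In fits chosen after the data were seen it was at -0.18 ± 0.11 with the pericyte sum (adjusted p = 0.540 by edgeR) and at -0.49 ± 0.11 with the blood endothelial sum (0.107). In the list of ephrin-B reverse signalling, 0 of 11 passed by edgeR (median -0.10), and the adaptor Nck2, which binds phosphorylated ephrin-B, was at 32.9 ± 2.71 and 37.0 ± 3.98 CPM (adjusted p = 0.422 by edgeR, chosen after its values were seen).

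Of 9 tested genes of ephrin and Eph shedding and dephosphorylation, 1 fell and 0 rose (median -0.01 on the log2 scale), against 2.80% of all tested genes that fell and 1.34% that rose. Adam10, the membrane protease that cuts ephrins and Notch, went from 634 ± 47.6 down to 463 ± 47.4 CPM (-0.45 ± 0.09 on the log2 scale, edgeR adjusted p = 0.0151). Of 5 genes through which ephrin-B2 is known to control VEGF receptor uptake, 2 fell and 0 rose (median -0.45), set against the same shares; a list of 5 is too short to read more from. Dab2, a clathrin adaptor that binds ephrin-B2 complexes, went from 805 ± 149.9 down to 452 ± 70.4 CPM (-0.83 ± 0.15 on the log2 scale, edgeR adjusted p = 0.00985). The VEGF receptor Kdr fell with a log2 fold change of -0.80 ± 0.14 (adjusted p = 0.00781 by edgeR). Flt4, which encodes VEGF receptor 3, had 3199 ± 379 and 2338 ± 542 CPM and did not pass (-0.45 ± 0.15, adjusted p = 0.115 by edgeR). The polarity genes Pard3 (80.3 and 73.8 CPM) and Prkci (54.0 and 55.7 CPM) had adjusted p of 0.661 and 0.904 by edgeR. Adam10 missed the threshold without IgG 3 (adjusted p = 0.0506), while Dab2 and Kdr passed without any single library. With the melanoma sum in the fit none of these 3 genes passed: Dab2 was at -0.75 (adjusted p = 0.137), Kdr was at -0.73 (0.140) and Adam10 at -0.50 (0.107 by edgeR). Nor did they pass with the macrophage sum (adjusted p = 0.0844, 0.0870 and 0.103 in the same order by edgeR) or without anti-Ang2 1, 2 and 3 (0.146, 0.103 and 0.0900). In 2 fits chosen after the data were seen they did not pass either. With the blood endothelial sum they were at -0.56, -0.51 and -0.34 in that order (adjusted p = 0.207, 0.128 and 0.231 by edgeR). With the pericyte sum the adjusted p-values were 0.168, 0.129 and 0.157 by edgeR.

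**Figure D5:**
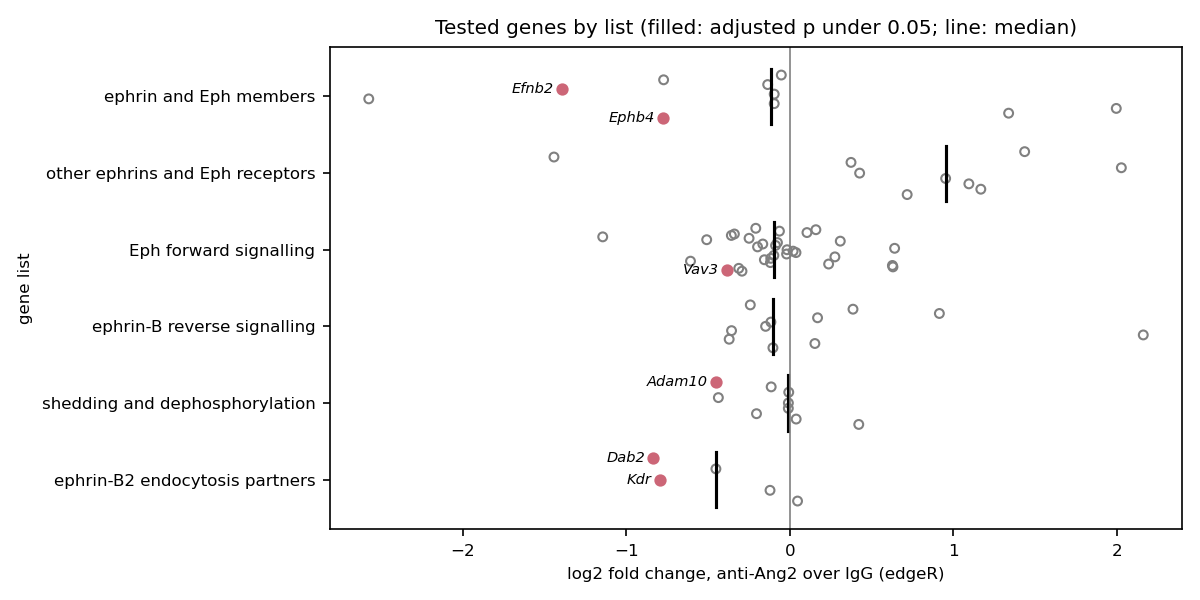
Log2 fold change (edgeR, anti-Ang2 over IgG) of every tested gene in 6 lists; filled points passed at adjusted p under 0.05 and vertical lines are list medians. Filled points are on the negative side in each list that has any, with Efnb2 at -1.39 the farthest from 0.

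The genes whose pattern over the 10 libraries was nearest to that of Efnb2 were Stxbp6, Anpep and Bmx, by the root mean square difference of log2 CPM centred per gene (0.14, 0.19 and 0.20, against a median of 0.82 over tested genes). Stxbp6, a regulator of SNARE complexes, fell from 112 ± 17.9 to 44.1 ± 8.68 CPM (adjusted p = 0.00111 by edgeR). Anpep, a membrane aminopeptidase, fell from 85.9 ± 18.3 to 34.1 ± 9.15 CPM (adjusted p = 0.00344 by edgeR), and Bmx, a kinase of arterial endothelium, from 46.9 ± 13.2 to 21.4 ± 5.04 CPM (adjusted p = 0.0151 by edgeR). Nearest to Ephb4 were Cbfa2t3, Arhgap27 and Icam2, at differences of 0.10, 0.11 and 0.11 (median 0.52 over tested genes). Cbfa2t3, a transcriptional corepressor, fell from 102 ± 11.3 to 62.8 ± 7.43 CPM (adjusted p = 0.00344 by edgeR). Efnb2 and Ephb4 themselves were 0.38 apart, which put Ephb4 at rank 99 in likeness to Efnb2. In likeness to Ephb4, Efnb2 ranked only 2433 at the same distance. All of these genes share the 10 libraries and the contrast, so the likeness is a description only.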

How the data were processed

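RNA of LEC from 10 mice was sequenced (5 IgG, 5 anti-Ang2, independent replicates per the series design). Per the labels' protocols, libraries came from SMART-Seq v4 cDNA; that chemistry keeps no strand information. STAR, featureCounts and DESeq2 with mm10 are named in the submitters' processing notes; versions are not given in the sources used here. The authors deposited raw counts, which entered the tests, and FPKM, used to compare genes. TPM were treated as a score, since the deposited columns do not sum to the total that TPM require. The deposited mean of scaled counts, a signal, was not used; the authors' log2 fold changes and their p-values are quoted only where named. There were 0 unused value columns.

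The test was that of edgeR 4.0.16 by quasi-likelihood (two-sided; TMM scaling; filterByExpr with minimum count 10 and total 15, treatment only) in R 4.3.3, with Benjamini-Hochberg adjustment and a threshold of 0.05. The SE was derived from the F statistic. Log2 CPM used a prior count of 2. Alternatives used limma 3.58.1 and DESeq2 1.42.0, other scalings, no filter, left-out libraries, marker sums (log2) as covariates and the replicate number as a block. Ratios and marker sums were compared by two-sided exact permutation over 252 arrangements (Python 3.11.15, numpy 2.4.6). The tests were tried on simulated data, where DESeq2 made many more false calls than edgeR or limma. The simulated counts were drawn with the gene variability estimated by edgeR, so the trial does not compare the tools on equal terms. Total counts per library ran from 38090933 to 83850341, and intervals from counts of 0 cover counting error only. Every pair of libraries differed by more than sampling noise (chi-square per degree of freedom at least 55.1). Gene spans came from GENCODE M21 and promoters from RefSeq GRCm38.p6, matched for 10 of 10 symbols.

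All members are described. From each other list up to 4 called genes of smallest p are named, and for Efnb2 and Ephb4 the 3 nearest genes; other names are marked. Members, lists and alternatives were chosen with earlier results of these data known.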

Additional observations from a re-analysis of the deposited data

Results flagged for a closer look

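In 3 of 48 groups of 5 libraries, 1 library stood apart by more than the gap that chance gives in about 1 of 20 groups. That share is close to what chance alone gives, and the groups are not independent, since the ratios reuse member values. Ephb3 was at 3.39 CPM in IgG 4, against 0 to 0.676 CPM in the other IgG libraries. The log2 ratio of Efnb2 to Efnb1 was 1.38 in anti-Ang2 3, against 2.36 to 2.46 in the other anti-Ang2 libraries, where Efnb2 was the lowest and Efnb1 the highest of that group. The macrophage and monocyte marker sum was 209.8 CPM in IgG 1, against 51.6 to 82.6 CPM in the other IgG libraries, and IgG 1 also had the lowest Efnb2 of its group (299.9 CPM).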

How the results depend on the processing

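Efnb2 and Ephb4 kept their direction in 23 of 23 alternatives each. They passed in all of them except, for both, the fit with both marker sums (-1.22 and -0.65, 0 members lower) and, for Efnb2, the blood endothelial covariate (-1.11, 1 member lower). Members lower ranged from 2 to 3 without 1 library. Efna5 passed with DESeq2 (-0.76), limma-voom (-0.85), without anti-Ang2 5 (-0.92; range without 1 library -0.92 to -0.64) and without anti-Ang2 4 and 5 (-0.88). Signs turned, each without a call, with the melanoma sum (Epha2 0.085, Ephb2 -1.005, Ephb3 -1.62), both sums (Epha2 0.14, Ephb2 -0.83, Ephb3 -1.21), the pericyte sum (Epha2 0.054, Ephb1 0.0017, Ephb2 -2.59, Ephb3 -2.77), without anti-Ang2 1, 2 and 3 (Ephb3 -0.62), without anti-Ang2 4 and 5 (Efna1 0.0045, Ephb1 0.036) and without anti-Ang2 4 (Ephb1 0.0026; range -0.27 to 0.0026). The cause was not tested. The fits with blood endothelial or pericyte sums and without anti-Ang2 4 and 5 were chosen after the data were seen.

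Of all tested genes 217 were called higher and 454 lower. These became 810 and 880 with DESeq2, 670 and 780 with limma-voom, 24 and 91 with the melanoma sum and 46 and 170 with macrophage markers. They were 0 and 3 when both sums were fitted (1892 at an unadjusted p under 0.05), 22 and 52 with the blood endothelial sum and 10 and 68 with the pericyte sum. The calls numbered 55 and 178 without anti-Ang2 1, 2 and 3, and 531 and 598 without anti-Ang2 4 and 5. Without 1 library the higher calls numbered 82 to 326 and the lower calls 259 to 468. Same-numbered libraries did not deviate together (correlations of deviations -0.12 to 0.11 over 5 pairs, and -0.20 to 0.19 over pairs of unlike number). No pairing by number was seen, though so few pairs cannot exclude one. With the replicate number as a block 82 genes were higher and 268 lower, and Efnb2 (-1.39, adjusted p = 0.0196) and Ephb4 (-0.77, 0.0168 by edgeR) still passed; of the list genes Dab2 passed (0.0336), while Adam10 (0.0551), Kdr (0.0627) and Vav3 (0.135) did not. The 5 ratios and shares passed without any 1 library; deposited TPM and CPM per length scale a library's genes nearly alike and so could hardly move them, and no marker covariate was fitted to them. The fibroblast sum differed by -8.41 CPM but by 76.2 on the FPKM scale, with no call in either. Values of Ephb2, Ephb3 and Epha4 rest on 0 to 285 counts per library and vary widely between libraries of like depth.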

Other observations

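Some further genes of the Eph and ephrin lists are given by value; they were not called by edgeR and were chosen after their values were seen. Arhgef15, an endothelial exchange factor that acts below Eph receptors, averaged 193 ± 9.72 CPM with IgG and 151 ± 21.7 CPM with the antibody, and its groups did not overlap (-0.36 ± 0.10 on the log2 scale, edgeR adjusted p = 0.0693). Ptpn13, a phosphatase that acts on ephrin-B, had 1.51 ± 1.20 and 6.81 ± 2.77 CPM in the same order, with overlap (2.16 ± 0.55, adjusted p = 0.0534 by edgeR). Efna2 had 0.749 ± 0.485 and 2.03 ± 0.476 CPM (1.44 ± 0.45, adjusted p = 0.104 by edgeR). Src, a kinase used in both directions of signalling, had 11.8 ± 3.01 and 18.2 ± 4.53 CPM (0.63 ± 0.22, adjusted p = 0.151 by edgeR). The melanoma marker sum was 981 and 3396 CPM in the same groups, and its part in these values was not tested.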
